A study of Mus musculus with 2 samples.

Results

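Messenger RNAs of 10 genes of clathrin and dynamin endocytosis were described in left cerebral cortex of young male mice. The genes were taken by symbol: Dnm1, Dnm2 and Dnm3 for the dynamins, Clta, Cltb and Cltc for the clathrin chains, Amph and Bin1 for the amphiphysins, Synj1 for synaptojanin and Sh3gl2 for endophilin. All 10 were found among the 55536 annotated genes of the deposited tables. They were listed by name, not by a threshold on a measured value, and earlier results of these data were known when they were chosen.

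The tissue came from B6CASTF1/J males at 25 days of age, the offspring of a cross between a laboratory strain and a wild-derived strain. There was 1 group of 2 libraries of total RNA, biological replicates 1 and 2, each made from 300 ng of RNA with spike-in RNAs added, and no treated, mutant or control animals. The labels give both libraries the same donor entry, so the animals are separate only as far as the separate biobank numbers and the words biological replicate say so, and each SD over n = 2 rests on that reading. With 1 group there was no contrast to test, and all differences below are between the libraries of that group.

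Clathrin-mediated endocytosis takes up membrane and cargo in small coated vesicles, and nerve terminals use it to retrieve synaptic vesicle membrane after release. Heavy and light clathrin chains form the lattice, adaptor proteins hold it to the membrane, proteins with a BAR domain bend the vesicle neck, and dynamin, a GTPase, constricts and cuts it. Synaptojanin then removes phosphates from the membrane lipid that holds the coat, and the chaperone Hsc70 strips the clathrin. Neurons join extra exons into the light chain and Bin1 messengers, and dynamin genes hold exon pairs of which a messenger uses 1 or the other.

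The exons on which the light chains' neuronal forms turn are shown first, as read from the mm10 transcripts of GENCODE M21 on the strand of the gene. In the 54-base exons of Clta and Cltb, capitals mark the bases that are the same in both genes at the same position. Of 54 positions, 37 were identical (68.5%), in runs broken mostly by single bases. The Clta exon lies at chr4:44030215-44030268 on the plus strand, and the Cltb exon at chr13:54597026-54597079 on the minus strand. Clta has in addition a 36-base exon at chr4:44031400-44031435, for which the annotation of Cltb shows no partner, and it is printed without capitals. All 3 exons are coding throughout.
Clta 54-base exon: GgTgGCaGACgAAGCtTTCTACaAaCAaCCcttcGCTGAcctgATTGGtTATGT
Cltb 54-base exon: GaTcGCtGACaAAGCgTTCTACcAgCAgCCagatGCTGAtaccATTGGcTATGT
Clta 36-base exon: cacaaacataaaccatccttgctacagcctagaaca

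Dnm1 and Dnm2 each hold a pair of 139-base coding exons, in the part of the messenger that encodes the middle of the protein. They are shown because a dynamin messenger carries 1 or the other, and the shares are given below. Capitals mark, within each gene, the bases at which the upstream and the downstream exon differ. In Dnm1, the exons at chr2:32334682-32334820 (upstream) and chr2:32333066-32333204 (downstream), on the minus strand, differed at 39 positions and were 71.9% identical. In Dnm2, the exons at chr9:21478899-21479037 (upstream) and chr9:21480407-21480545 (downstream), on the plus strand, differed at 44 positions and were 68.3% identical.
Dnm1 upstream exon: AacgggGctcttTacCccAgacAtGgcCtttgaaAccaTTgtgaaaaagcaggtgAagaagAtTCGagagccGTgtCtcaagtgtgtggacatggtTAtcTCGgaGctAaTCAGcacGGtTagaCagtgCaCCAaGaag
Dnm1 downstream exon: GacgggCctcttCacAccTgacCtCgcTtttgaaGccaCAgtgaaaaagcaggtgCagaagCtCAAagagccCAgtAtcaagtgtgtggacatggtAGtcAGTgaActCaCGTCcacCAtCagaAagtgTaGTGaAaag
Dnm2 upstream exon: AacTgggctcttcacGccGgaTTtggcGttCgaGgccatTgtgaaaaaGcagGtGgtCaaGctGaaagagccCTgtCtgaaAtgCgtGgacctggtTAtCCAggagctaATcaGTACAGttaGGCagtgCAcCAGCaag
Dnm2 downstream exon: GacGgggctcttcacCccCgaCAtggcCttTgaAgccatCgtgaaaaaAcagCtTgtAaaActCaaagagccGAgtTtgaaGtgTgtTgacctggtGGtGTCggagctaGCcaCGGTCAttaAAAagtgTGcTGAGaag

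Across the genes, the upstream exons of Dnm1 and Dnm2 were 79.1% identical and the downstream exons 72.7%. The upstream exon of Dnm1 was 72.7% identical to the downstream exon of Dnm2, and the downstream exon of Dnm1 66.9% identical to the upstream exon of Dnm2. Dnm3 has 1 annotated exon of this length in that place, at chr1:162307868-162308006 on the minus strand, in which capitals mark the bases that differ from the upstream exon of Dnm1. It differed from that exon at 42 positions, for 69.8% identity. The Dnm3 exon was 64.0% identical to the downstream exon of Dnm1. It was 72.7% identical to the upstream and 71.2% to the downstream exon of Dnm2.
Dnm3 single exon: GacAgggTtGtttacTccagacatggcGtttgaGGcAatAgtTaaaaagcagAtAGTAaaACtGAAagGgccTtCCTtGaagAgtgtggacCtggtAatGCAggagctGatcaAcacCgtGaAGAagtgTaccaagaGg

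The libraries were deep for these genes. Replicate 1 held 30503944 expected counts in all and replicate 2 held 33263801, and the 10 genes held between 1138 and 36387 expected counts each per library. Levels are deposited gene-table TPM, an abundance scaled by transcript length and by the table's total, which can be compared between genes. The threshold for detection was 1 TPM in each library, and 14744 genes, 26.5% of those annotated, reached it, with a median of 13.34 TPM. The 7SK and 7SL RNA genes Rn7s1, Rn7s2 and Rn7sk held 33.3% and 33.7% of gene-table TPM, against 0.000188% and 0.000412% in a second transcript table deposited for the same libraries. Levels in that second table were a median of 1.57 times higher over detected genes and 1.35 to 1.69 times higher for the 10 genes, so levels are compared within a table only.

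All 10 genes were detected, with Dnm1 at the top, and the 8 other than Dnm3 and Dnm2 stood at or above 92.7% of detected genes. Their median level was 123.0 TPM, and together they summed to 1578.0 TPM in replicate 1 and 1589.0 TPM in replicate 2. The tissue's own markers were present: all 8 neuronal markers were detected, with a median of 348 TPM in both libraries, and Snap25 reached 1168.06 and 1155.22 TPM. In bulk tissue, fewer cells of a type and less RNA per cell cannot be told apart.

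The clathrin chains were all abundant. Cltc, on chromosome 11, encodes the heavy chain that builds the legs of the triskelion, and had 235.44 TPM in replicate 1 and 235.45 TPM in replicate 2 (235 ± 0.00707, SD, n = 2). It ranked 311 of the 14744 detected genes. Cltb, the light chain b gene on chromosome 13, had 129.64 and 134.54 TPM (132 ± 3.46). Clta, the light chain a gene on chromosome 4, had 123.36 and 122.45 TPM (123 ± 0.643). Light chains regulate assembly of the heavy chain lattice, and the genes for both were at near equal levels. Clta made up 48.8% and 47.6% of light chain TPM (48.2% ± 0.786), and 47.6% and 48.0% in the second table. Both light chains together stood at 1.07 and 1.09 times the heavy chain in gene-table TPM, and at 1.31 and 1.31 times in the second table.

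Among the dynamins Dnm1 dominated. Dnm1, the neuronal dynamin, on chromosome 2, had 566.01 and 568.87 TPM (567 ± 2.02) and ranked 102 among detected genes, above 99.3% of them. Dnm3, which is expressed mainly in brain and testis and acts at postsynaptic sites as well as terminals, had 40.11 and 38.28 TPM (39.2 ± 1.29). Dnm2, the dynamin that nearly all cell types express, had 25.38 and 24.26 TPM (24.8 ± 0.792), rank 4778. The groups of values did not overlap, and Dnm1 was 22.3 and 23.4 times as high as Dnm2. Of the TPM of the 3 dynamins, Dnm1 took 89.6% and 90.1%, Dnm3 6.35% and 6.06%, and Dnm2 4.02% and 3.84%. The second table gave Dnm1 90.1% in both libraries. Dnm1 also exceeded the heavy chain, by 2.40 and 2.42 times.

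The membrane-bending partners were close to each other and to the light chains. Sh3gl2 encodes endophilin A1, a BAR domain protein that recruits synaptojanin and dynamin to the vesicle neck, and had 121.21 and 125.67 TPM (123 ± 3.15). Bin1, or amphiphysin 2, links the membrane to dynamin and clathrin, and had 97.85 and 99.96 TPM (98.9 ± 1.49). Amph, amphiphysin 1, the brain-enriched relative that pairs with it, had 93.71 and 95.23 TPM (94.5 ± 1.07). Amph held 48.9% and 48.8% of the amphiphysin TPM, the lesser share. That order turned when transcripts other than protein-coding ones were left out, to a mean of 52.3% for Amph, because Bin1 carries a retained-intron transcript described below. Synj1, the lipid phosphatase that acts on the coat's membrane lipid, had 145.10 and 143.88 TPM (144 ± 0.863), rank 619.

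**Figure D1:**
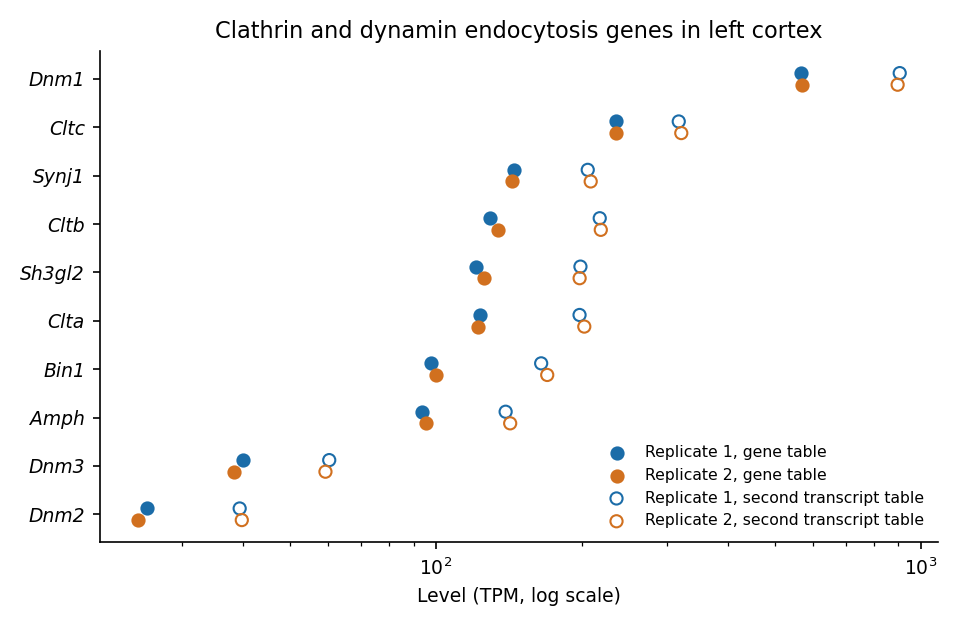
TPM (log axis) of the 10 genes, ordered by mean level from the top, in replicate 1 (blue) and replicate 2 (orange), from the gene table (filled) and the second transcript table (open). Dnm1 stands alone near 567 TPM, Dnm3 and Dnm2 lie lowest at 39.2 and 24.8 TPM, and the open points lie to the right of the filled ones for every gene.

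Ordered by mean gene-table level, the genes ran Dnm1, Cltc, Synj1, Cltb, Sh3gl2, Clta, Bin1, Amph, Dnm3 and Dnm2. Neighbours in this order did not overlap between libraries except Sh3gl2 and Clta, whose ratio of means was 1.00. The steps were of unequal size: Dnm1 stood 2.41 times above Cltc and Amph 2.41 times above Dnm3, whereas Synj1 stood 1.09 times above Cltb and Bin1 1.05 times above Amph. The second table turned the order of Synj1 and Cltb, with a ratio of 0.949, and that of Sh3gl2 and Clta, 0.991, that pair again with overlapping values. With 2 libraries, a lack of overlap is a description of these libraries and has no test.

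The animals hardly differed for these genes. A gene was called different when replicate 1 and replicate 2 lay at least 1.5-fold apart on the log2(TPM + 0.5) scale, and 683 of 18136 genes with a mean expected count of 10 or more did so, or 3.77% (2.22% with replicate 1 higher and 1.54% with replicate 1 lower). None of the 10 genes was called, 0 of 10, and the furthest apart, Dnm3, differed 1.047-fold. At 3.77% in the background, 0 of 10 is no result about the genes. Their log2 differences, replicate 1 over replicate 2, spanned -0.05 to 0.07 with a median of -0.00366, against a median of 0.0308 and a 5th to 95th percentile of -0.34 to 0.43 over all genes tested. The 10 genes are deeply counted, and the median absolute difference was 0.0269 for them, 0.114 for all genes tested and 0.068 for the 5627 genes with a mean count of 1000 or more.

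An exact binomial interval on TMM-scaled counts, which covers counting error only, left out 0 for 21.6% of the 18136 genes tested and for 3 of the 10. At 21.6% in the background, 3 of 10 is no result about the genes. Such intervals narrow with depth, and no share was computed for genes counted as deeply as these 10. Cltb had a log2 difference in scaled counts of -0.08 (95% interval -0.15 to -0.01), Amph -0.06 (-0.11 to -0.01) and Bin1 -0.06 (-0.12 to just under 0). Those 3 and Cltc were lower in replicate 1 under each of 8 settings of scaling, pseudocount and table, and the other 6 genes changed sign between settings. The Cltc difference rounded to 0 on TPM with every pseudocount, and that of Cltb was -0.007 in the second table. All settings use the same 2 libraries, and several the same TPM or counts, so they are not separate measurements. The largest difference of any of the 10 under any setting was 0.22 in size, with counts scaled by spike-in total, which moved the median of all genes to -0.154. The 10 markers of mature oligodendrocytes were all lower in replicate 1, with a median log2 of -0.421 and a summed level of 928 TPM in replicate 1 and 1238 TPM in replicate 2. Choroid plexus markers were lower in replicate 1 as well, at 24 and 201 TPM in sum, mostly Ttr with 19.47 and 191.94 TPM. Their part in the small Cltb, Amph and Bin1 differences was not tested.

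**Figure D2:**
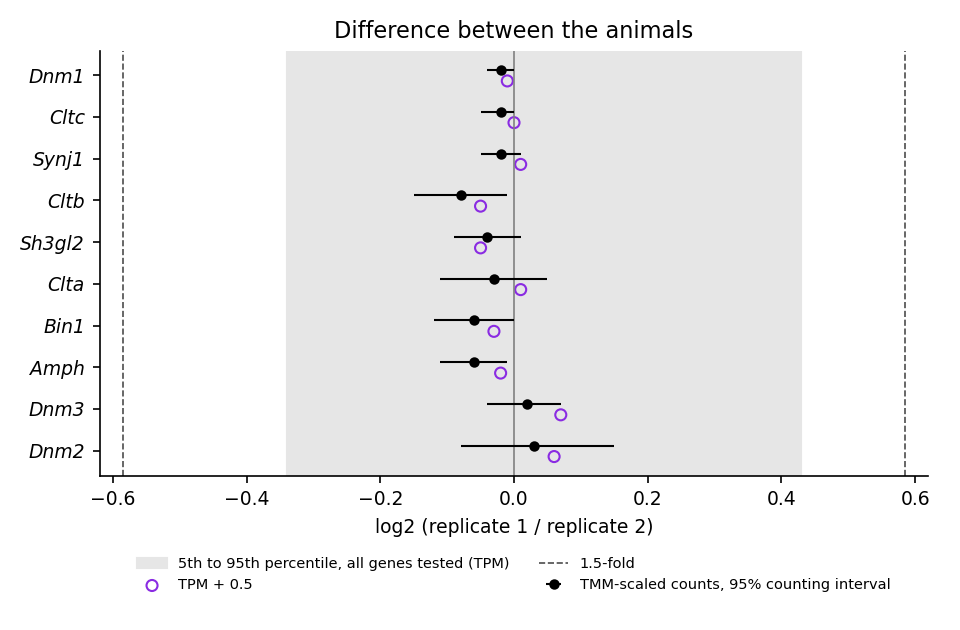
log2 of replicate 1 over replicate 2 for the 10 genes. Black points and bars are TMM-scaled counts with 95% counting intervals, open circles are TPM + 0.5, the grey band spans the 5th to 95th percentile of all genes tested, and dashed lines mark 1.5-fold. Every point lies near 0, inside the band, between -0.08 and 0.07.

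Transcript shares were used to read which exons the messengers carried. The gene tables come with a first transcript table, with the column names of RSEM, and a second one, with the column names of kallisto, and each assigns the reads to annotated transcripts. A share is the TPM of transcripts that hold a form of a region over the TPM of all transcripts that span it. Only the exon combinations present in the annotation can take reads, so a share also carries what else differs between those transcripts, such as the length of the 3′ end.

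Most light chain messengers carried the neuronal exons. In Clta, the form with both the 54-base and the 36-base exon, Clta-205, held 75.6% and 74.5% of the spanning TPM in the first table (75.0% ± 0.751) and 61.3% and 61.8% in the second. The form with the 54-base exon alone, Clta-204, held 10.4% and 12.3%, and 8.61% and 9.99% in the second table. The form with the 36-base exon alone, Clta-203, held 6.03% and 7.47%, and 9.50% and 9.42% in the second table. Counted by exon, the 54-base exon was in 85.9% and 86.8% and the 36-base exon in 81.6% and 82.0% of Clta, and 1 or both were in 92.0% and 94.3%. The coding sequence is 744 bases long in the full form and 648 or 654 in the short forms Clta-201 and Clta-202.

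The form of Clta with neither exon took 8.05% and 5.68% in the first table but 20.6% and 18.7% in the second. That gap came from Clta-202, at 0.00 TPM in both libraries of the first table, with deposited upper bounds of 0.216 and 0.184 TPM, and at 36.55 and 34.75 TPM in the second. In both tables and both libraries the full form led, so the order of the leading form did not rest on the table while its size did.

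Cltb has 1 such exon, and its share of spanning TPM was close in both tables. Cltb-201, with the 54-base exon, held 81.1% and 81.5% of spanning TPM in the first table (81.3% ± 0.297) and 81% and 80.0% in the second. Cltb-202, without it, held the remaining 18.9% and 18.5%. These transcripts also differ in length, 1004 bases for Cltb-201 and 2186 for Cltb-202. In expected counts, which are not corrected for length, the share with the exon was 65.3%. Of spanning TPM, the 54-base exon was thus in 86.4% of Clta and 81.3% of Cltb in the first table. In the second it was in 70.8% of Clta and 80.5% of Cltb. All Clta transcripts span the region, whereas Cltb-203, at 0.0% of the gene in the first table and 9.59% in the second, and Cltb-204 do not. Of all Cltb TPM, Cltb-201 held 78.4% in the first table and 69.9% in the second, below the Clta exon in both. Which light chain carried the exon more often in the second table thus depended on the transcripts counted.

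Bin1, on chromosome 18, was mostly in its long neuronal form. A 93-base coding exon at 32414945 to 32415037 was in 73.1% and 71.3% of spanning TPM in the first table (72.2% ± 1.23) and in 61.1% and 60.6% in the second. The later block in the long form joins exons of 129, 108, 24, 108 and 72 bases. It includes the clathrin- and adaptor-binding stretch of neuronal amphiphysin 2. The block was whole in 73.8% and 71.3%, and in 61.8% and 60.6% in the second table. Its 72-base exon is not particular to the long form, and was in 86.2% and 88.8%, and in 97.3% and 96.0% in the second table. In the annotation used, the 93-base exon and the whole block occur in Bin1-201 alone, so these are not separate measurements. Bin1-201 has 19 exons and a coding sequence of 1764 bases, and held 60.19 and 62.45 TPM.

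The shorter Bin1 forms were split differently by the tables. The form with the 129-base and 72-base exons only, Bin1-202, held 6.71% and 10.4%, and 7.78% and 6.89% in the second table. The form with the 72-base exon alone, Bin1-206, held 5.62% and 7.03% in the first table, against 27.8% and 28.5% in the second. The form that skips the whole block, Bin1-205, held 13.8% and 11.2%, against 2.70% and 4.03% in the second. Together the forms without the whole block stayed below the long form in every library and table. The 129-base exon, which Bin1-202 shares with the long form, was in 80.5% and 81.8%, and in 69.5% and 67.5% in the second table. Bin1-202 was lower in replicate 1 in the first table and higher in the second, so its difference between animals had no stable direction. Bin1-206 was lower in replicate 1 in both tables, and Bin1-205 was higher in replicate 1 in the first table and lower in the second. Oligodendrocyte markers were lower in replicate 1, as given above, and their part in these shares was not tested.

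**Figure D3:**
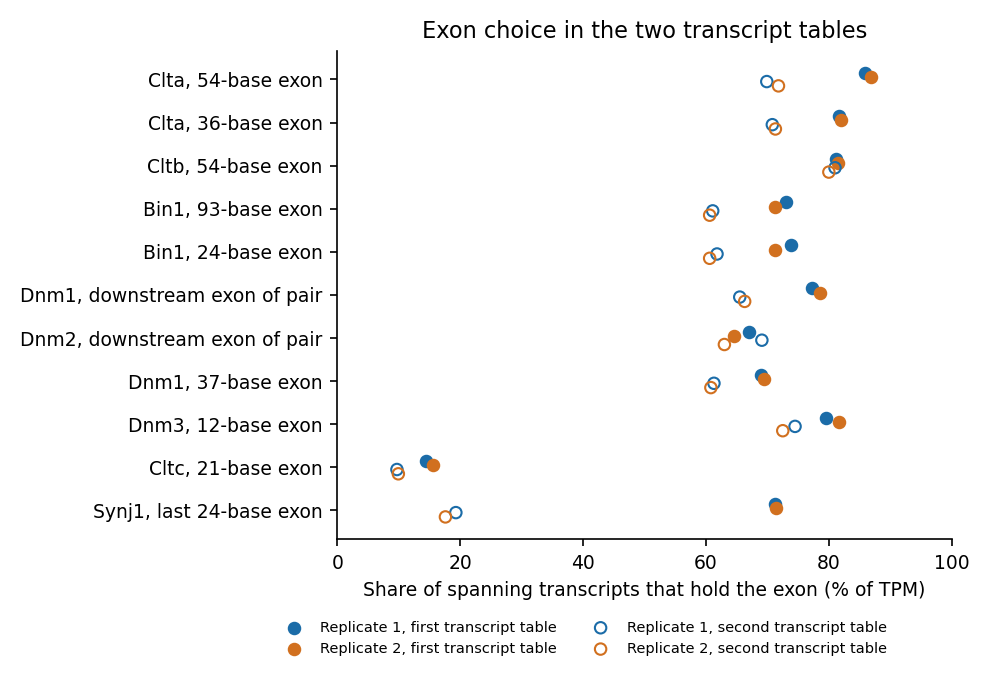
Share of spanning transcript TPM (%) that holds each exon, in replicate 1 (blue) and replicate 2 (orange), in the first (filled) and second (open) transcript table. The neuronal exons of Clta, Cltb and Bin1 lie above 60% in all 4 values, and the last 24-base exon of Synj1 is far apart between tables, at 71.2% and 71.4% against 19.3% and 17.6%.

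Dnm1 and Dnm2 both used the downstream exon of their pairs more. In Dnm1 the downstream exon was in 77.2% and 78.5% of spanning TPM and the upstream exon in 22.6% and 21.3%, and the second table gave 65.5% and 66.3% downstream. In Dnm2 the downstream exon was in 67.0% and 64.5% and the upstream one in 33% and 35.5%, with 69.1% and 63.0% downstream in the second table. Dnm1 had the larger downstream share in the first table, whereas in the second the Dnm2 libraries lay on either side of Dnm1. Dnm2 rests on 1138 and 1212 expected counts, the fewest of the 10 genes, and its library values spread by more than those of Dnm1.

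Other dynamin exons were also mixed. A 37-base exon near the 3′ end of Dnm1, at chr2:32310451-32310487, was in 69.0% and 69.4% of spanning TPM, and 61.3% and 60.8% in the second table. The coding sequence is 2553 bases in Dnm1-201, which holds this exon, and 2592 in Dnm1-205 and Dnm1-214, which skip it. A further transcript that skips it, Dnm1-216, has a coding sequence of 2505 bases and a mean share of 0.181% in the first table. A 12-base exon was in 94.1% and 93.9% of Dnm1, and a 12-base exon of Dnm2 in 68.4% and 61.8%. Dnm3 also has a 12-base exon, present in Dnm3-202 alone, with 79.5% and 81.7% in the first table and 74.5% and 72.5% in the second. Each of these short exons was in most of its gene's spanning TPM in both tables.

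The leading transcript of Dnm1 was Dnm1-201, with the downstream 139-base exon and the 37-base exon, at 48.1% and 47.7% of gene TPM and 35.1% and 36.9% in the second table. Next in the first table came Dnm1-214, with 14.5% and 14.6%, but it had 1.16% and 2.33% in the second. Dnm1-217, with 3.19% and 3.20% in the first table, had 17.7% and 15.4% in the second. Dnm1-214 and Dnm1-217 both hold the downstream exon and shifted in opposite directions between tables. The mean share of that exon still moved, from 77.8% of spanning TPM in the first table to 65.9% in the second. Dnm1-205, with the upstream exon, had 9.13% and 8.40%, against 21.8% and 21.8% in the second table. Of the rest, Dnm1-202 had 5.04% and 5.10%, and 1.82% and 1.26% in the second table. Dnm1-206, annotated for nonsense-mediated decay, had 5.25% and 5.37%, and 3.12% in both libraries of the second table.

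Dnm2 was spread over many transcripts, with Dnm2-211 leading the first table at 20.0% and 21.1% (17.5% and 15% in the second), and the processed transcript Dnm2-205, which has no annotated coding sequence, leading the second at 18.7% and 16%, against 10.2% and 11.3% in the first. Among full-length coding forms, Dnm2-202 had 14.4% and 12.2% in the first table and 7.31% and 7.94% in the second, and Dnm2-201 had 10.3% and 8.37% in the first and 10.3% and 9.57% in the second. Dnm2-212 had 5.40% and 11.9%, and 8.37% and 7.49% in the second table. Its order between the libraries turned with the table. Dnm2-204 was at 1.73% and 0.00% in the first table and 7.93% and 12.1% in the second, and the short Dnm2-208 at 3.35% and 3.09%, and 10.3% and 6.32%. The retained-intron Dnm2-210 had 14.3% and 10.8%, and 12.6% and 12.5% in the second table. Dnm2-214, annotated for nonsense-mediated decay, had 8.94% and 12.4%, and 5.02% and 13% in the second table, lower in replicate 1 in both. Its deposited bounds in the first table overlapped widely, at 0.578 to 4.16 TPM in replicate 1 and 1.48 to 4.47 TPM in replicate 2.

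Dnm3 was led in both tables by Dnm3-202, with 73.7% and 75.6%, and 69.3% and 67.5% in the second. Dnm3-201, which lacks the 12-base exon, had 12.3% and 10.7%, and 14.7% and 17.2% in the second table. The shorter Dnm3-205 had 4.01% and 4.21%, and 6.19% and 6.70%.

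The heavy chain and synaptojanin showed where the tables parted most. In Cltc an early exon is annotated as 208 bases, in Cltc-202, or 12 bases longer at 220, in Cltc-201. The first table gave the 208-base form 97.3% and 98.2%, whereas the second gave it 44.1% and 44.8%. Cltc-201 itself had 5.16 and 3.43 TPM in the first table and 158.38 and 156.74 TPM in the second, which made its share of the gene the largest gap of all 87 transcripts, at 47.6 points. A 21-base exon of Cltc, in the short transcript Cltc-203, was at 14.5% and 15.5%, and at 9.71% and 9.94% in the second table.

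Synj1 messengers end in a long or a short form, which differ in the tail that binds adaptors and accessory proteins. A 24-base exon near the 3′ end was in 71.2% and 71.4% of spanning TPM in the first table and in 19.3% and 17.6% in the second. Skipping of it, as in Synj1-203 with the longest annotated coding sequence of the named Synj1 transcripts, 4821 bases, was at 20.0% and 20.5% in the first table and 52.3% and 52.8% in the second. A 21-base version of the exon, in Synj1-206, was at 8.85% and 8.13% in the first table and 28.4% and 29.6% in the second. Both versions together stayed above skipping in the first table and a little below it in the second. The tables thus put the 24-base version and skipping in opposite order. Synj1-202, which holds the 24-base exon, led the first table with 26.4% and 31.1% of gene TPM and had 0.324% and 0.486% in the second. Synj1-203 led the second, with 46.8% and 47.1%, against 14.3% and 14.5% in the first. Synj1-210, also with the 24-base exon, had 11.4% and 5.76%, and 16.9% and 15.3% in the second table. The shorter Synj1 transcripts parted as well. Synj1-206, with a coding sequence of 309 bases, had 6.35% and 5.73%, and 25.5% and 26.5% in the second table. Synj1-207 had 13.1% and 17.1%, and 0.913% and 2.76%, and Synj1-212 had 11.9% and 10.7%, and 6.74% and 6.84%. A set of 3 exons of 39, 48 and 39 bases was in most of the gene in both, at 66.7% and 67.4%, and 89.6% and 90.2%.

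Amph and Sh3gl2 have 5 annotated transcripts each. Amph has a 57-base exon, in Amph-204, or its 45-base version, in Amph-201. The 57-base version held 56.4% and 66.2% in the first table and 32.7% and 40.5% in the second, so the leading version turned with the table. Amph-201 held 42.9% and 33.3% of gene TPM in the first table and 66.1% and 58.7% in the second. The longer version was lower in replicate 1 in both tables, and its coding transcript Amph-204 was 9.9 points of gene share lower in the first table, the widest spread between libraries there among all 87 transcripts. In the second table Amph-204 was higher in replicate 1, with 32.2% and 27.5%, and the non-coding Amph-205, with 0.0355% and 12.6%, made up the difference. Sh3gl2 was nearly all Sh3gl2-201, with 95.2% and 91.0%, and 83.3% and 83.6% in the second table, where Sh3gl2-203 took 11.3% and 12.3%.

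Over the 10 genes, 87 transcripts were annotated, 54 of them protein-coding. The tables named the same leading transcript in 6 of 10 genes, and 17 transcripts in 7 genes lay 10 or more points of share apart between them. Retained-intron transcripts held the largest shares in Dnm2, Bin1 and Dnm1. In Bin1 they made up 15.8% and 12.4% of gene TPM, all of it Bin1-204, and 14% and 11.6% in the second table. In Dnm2 they made up 21.7% and 17.3%, and 12.6% and 12.5% in the second table. In Dnm1 they made up 7.20% and 7.30%, and 12% and 13% in the second table, where Dnm1-211 held all of it, against 6.71% and 6.81% in the first. In the second table the 3 genes were thus close to each other. Protein-coding transcripts were 55.2% and 56.6% of Dnm2, the lowest share of the 10, against the whole of Clta and Sh3gl2. Total RNA libraries hold unspliced and partly spliced RNA as well as finished messengers, so gene TPM is not a measure of coding messenger alone.

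The rest of the endocytic pathway was present as a whole. Of 57 further genes in 6 lists, 57 were detected, none was 1.5-fold apart between the animals (3.77% in the background), and their median level was 57.4 TPM. Their median log2 difference was 0.0322, against 0.0308 over all genes, and the largest was 0.38, for Pacsin3. Lists were described by their medians, their 2 highest genes and their lowest.

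The AP2 adaptor genes had a median near the light chain levels, and the coat assembly and cargo genes a lower one. The 5 AP2 adaptor subunits, which bridge clathrin and cargo, had medians of 139 and 136 TPM, led by Ap2m1 with 395.01 and 393.08 TPM and Ap2a1 with 146.99 and 145.78 TPM, with Ap2a2 lowest at 88.50 and 90.94 TPM. The 15 coat assembly and cargo genes had medians of 58.5 and 58.1 TPM. Epn1, an epsin that bends membrane and binds clathrin, led them with 204.20 and 201.48 TPM. Snap91, the neuronal clathrin assembly protein AP180, followed with 191.69 and 176.46 TPM, and the sorting adaptor Ston1 was lowest at 2.73 and 2.18 TPM.

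Lists of partner proteins spanned a wide range. The 13 BAR and curvature genes had medians of 21.8 and 22.2 TPM, led by the syndapin gene Pacsin1 with 196.83 and 189.35 TPM and the endophilin B gene Sh3glb2 with 126.52 and 121.15 TPM, and Bin2 was lowest at 2.14 and 2.42 TPM. Sh3gl1 and Sh3gl3, the endophilin A relatives of Sh3gl2, were within this list at 21.34 and 20.90 TPM and at 21.83 and 22.18 TPM. Sh3gl2 was thus the highest of the 3 endophilin A genes in both libraries. The 10 uncoating and lipid genes had medians of 34.8 and 34.5 TPM. Hspa8, the Hsc70 chaperone that removes clathrin, was the highest of the 57 pathway genes at 1053.26 and 1107.31 TPM, and Pip5k1c, a kinase that makes the coat's lipid, had 194.98 and 183.61 TPM. Inpp5e was lowest at 8.71 and 8.68 TPM, and Synj2, the relative of Synj1, had 54.08 and 53.65 TPM.

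Regulators were high. The 10 kinases and phosphatases had medians of 119 and 116 TPM, led by the calcineurin subunits Ppp3ca with 398.42 and 374.30 TPM and Ppp3r1 with 364.48 and 353.56 TPM. Calcineurin dephosphorylates dynamin at nerve terminals during activity. The lowest of the list was Bmp2k at 5.41 and 5.56 TPM. The 4 other dynamin family genes, which act on mitochondria, had medians of 63.8 and 67.9 TPM, with Dnm1l at 93.69 and 94.30 TPM, Mfn2 at 78.75 and 81.49 TPM and Opa1 at 48.84 and 48.12 TPM. Dnm1l, which cuts mitochondria, was thus above Dnm3 and Dnm2 in both libraries.

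**Figure D4:**
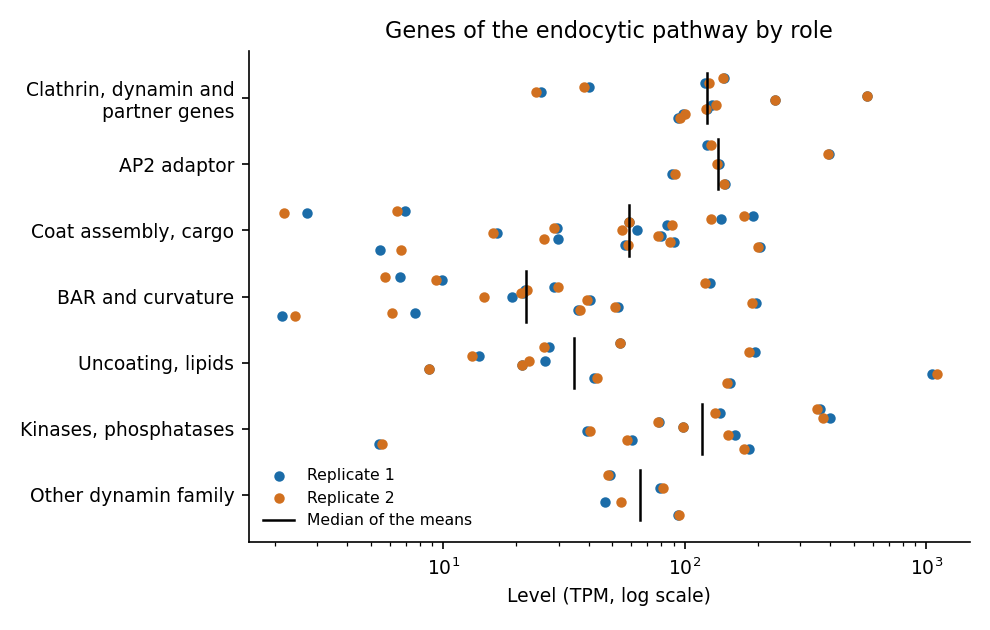
TPM (log axis) of the 10 genes in the top row and of the 57 further pathway genes by role below, in replicate 1 (blue) and replicate 2 (orange), with the median of the gene means as a black line. The medians run between 22.0 TPM for BAR and curvature genes and 137 TPM for the AP2 adaptor, and the 10 genes' median of 123 TPM lies near the upper end.

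Cells other than neurons were present too. All 8 astrocyte markers were detected, with medians of 73.1 and 71.2 TPM, as were the 10 mature oligodendrocyte, 5 precursor, 6 microglial and 5 endothelial markers. Choroid plexus markers were detected for 3 of 6 genes, and 5 of the 6 were at least 1.5-fold lower in replicate 1 (1.54% in the background). Besides Ttr these were Folr1, Clic6, Aqp1 and Kl, all at low levels. They ran from 0.24 TPM for Aqp1 in replicate 1 to 2.43 TPM for Kl in replicate 2. Of the 4 leukocyte markers 0 were detected, and Ly6g and Nkg7 were at 0 counts in both libraries. How much of each gene's level came from which cell type was not measured.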

How the data were processed

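Total RNA-seq of 2 libraries of 1 group was used. Per the labels and the deposited file list, values are on mm10 with GENCODE M21; aligner and programme versions: not given in the sources used here. The authors deposited a gene table and a first transcript table with expected counts and TPM, and a second transcript table with estimated counts and TPM; the column names are those of RSEM and of kallisto, per the file headers. TPM is scaled to the total of all rows of a table. Whether reads were counted by strand is not given, and reads of the hybrid's wild-derived alleles were placed, as far as the sources say, on mm10; the effect was not tested.

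Rows that name no gene (26248 numbered rows, 2.29e-05% and 3.01e-05% of counts) were left out. Genes and transcripts were joined by identifier. Means and SD are over n = 2. Differences are log2(TPM + 0.5), replicate 1 minus replicate 2, over genes whose expected count averaged 10 or more. Counts were rounded and scaled with edgeR 4.0.16 (TMM), and with DESeq2 1.42.0 size factors as an alternative, in R 4.3.3; no model was fitted and no p-value computed. Intervals are exact binomial at 95% and reflect counting alone, not variation between animals. They treat each count as separate, although PCR copies of a molecule could not be told from other molecules. Spliced regions were found from the annotation as pairs of exon ends joined through different exons. The interval step was tested on simulated data. Python 3.11.15, pandas 2.3.3 and scipy 1.17.1 were used.

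All 10 genes were named. Transcripts were named with a mean share of 5% or more in either transcript table. Dnm1-216 was named after its values were seen. Of each pathway list, the 2 highest genes, the lowest and any gene 1.5-fold apart were named, while marker lists are given mainly by counts and sums; Sh3gl1, Sh3gl3, Synj2 and Pacsin3 were added after their values were seen. No genes of like pattern were sought, since 1 group defines no pattern. The genes and lists were chosen with earlier results of these data known.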

Additional observations from a re-analysis of the deposited data

How the results depend on the processing

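Of the 10 genes, 0 were 1.5-fold apart under every alternative scaling, pseudocount, table and fold tried. The share of all genes that far apart was 3.77%, and became 8.25% and 2.02% with pseudocounts of 0.1 and 1, 8.23% with TMM, 8.25% with DESeq2 size factors, 8.34% by total, 8.41% by spike-in total, 6.43% with any count, 1.15% at a mean count of at least 100 and 0.70% at 2-fold. Counting protein-coding transcripts only gave Dnm1 90.7% of the dynamins, Clta 49.1% of the light chains, Amph 52.3% of the amphiphysins and a light to heavy ratio of 1.13. Expected counts, which are not corrected for length, gave 84.2%, 44.4%, 57.7% and 0.229. The second table gave Amph 45.7% and a light to heavy ratio of 1.31, and posterior mean TPM gave Amph 48.8%. The full Clta form was 61.5% in the second table and 75.9% in counts, the Cltb exon 80.5% and 65.3%, and the 93-base exon of Bin1 60.8% and 77.5%. Causes were not tested beyond the length correction itself. Of 516 alternative values, 192 moved by more than the spread between the libraries (counts of genes by over 1.5 times) and 324 did not; none of the 10 genes was called, and the log2 differences of 6 changed sign between settings. With 1 library left out, no share has a spread, and values were those printed for the other library. No paired analysis was possible because there is 1 group. Shares of the least counted gene, Dnm2, and of transcripts told apart by a few bases are the least precise.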

Other observations

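Most genes that overlap the 10 in the genome were under 1 TPM. Of 24 annotated genes that overlap 7 of them, 20 lie on the opposite strand, and 4 reached 1 TPM. Ciz1, opposite Dnm1, had 31.81 and 31.93 TPM in replicates 1 and 2, against 566.01 and 568.87 TPM for Dnm1, and was above the median of detected genes, 13.34 TPM. Tmed1, opposite Dnm2, had 5.27 and 6.24 TPM, and the long non-coding A830052D11Rik, opposite Bin1, had 3.62 and 3.50 TPM. Adamtsl1, on the same strand as Sh3gl2, had 1.59 and 2.20 TPM. Where exons of genes on opposite strands overlap, their reads cannot be told apart without strand. For Adamtsl1 and Sh3gl2, on the same strand, strand would not separate them. Only the spans of the genes were compared, and whether their exons overlap was not examined.

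The dynamin genes each host a microRNA gene of the miR-199 family on the opposite strand, Mir199b in Dnm1, Mir199a-1 in Dnm2, and Mir199a-2 together with Mir214 in Dnm3. All 4 were at 0 counts in both libraries, and Dnm3os, the antisense transcript that carries the pair in Dnm3, had 1 expected count in each. Hairpins this short are poorly measured by these libraries, so a count of 0 says nothing of the mature microRNAs.

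Some transcripts were listed at 0 in 1 table and well above it in the other. Cltb-203 was at 0.00 TPM in both libraries of the first table, with deposited upper bounds of 2.10 and 1.55 TPM, and at 20.98 and 20.89 TPM in the second. Amph-205 was at 0.00 TPM in the first table, and in the second at 0.05 TPM for replicate 1 against 17.92 TPM for replicate 2. Synj1-208 ran the other way, with 19.26 and 19.43 TPM in the first table and 0.00 TPM in the second. Dnm2-207, a retained-intron transcript, had 1.90 and 1.57 TPM in the first table and 0.00 TPM in the second.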
